A study of Homo sapiens with 4 samples.

Results

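AP1M2, its ubiquitous paralog AP1M1 and 4 further genes of polarized epithelial transport, RAB25, RAB11FIP1, MYO5B and MAL2, were followed in PC-3 prostate cancer cells with and without overexpression of RRM2. The 6 genes were taken by symbol from a table of 17634 genes, and all 6 were found and passed the filter on low counts. They were picked with earlier results of this same comparison known, so that their values are a description and carry no test. RRM2 is the small subunit of ribonucleotide reductase, the enzyme that makes deoxyribonucleotides. PC-3 is an established line from a bone metastasis of prostate cancer. RNA-seq of total RNA was done on PC-3 cells carrying an empty vector (PC-3-EV, n = 2 libraries) and on PC-3 cells carrying a lentiviral vector that encodes RRM2 (PC-3-RRM2, n = 2 libraries). The RRM2 line was kept under puromycin as a stable line. They are called EV cells and RRM2 cells below. The sources used here do not say whether the lines were pools or single clones, nor whether replicate libraries were grown apart.

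Polarized epithelial cells send membrane proteins to an apical surface, which faces the lumen, or to a basolateral surface, which faces neighbouring cells and the matrix. The clathrin adaptor AP-1 sorts cargo at the trans-Golgi network and in recycling endosomes. Its medium (mu) subunit reads the sorting signal, and epithelial cells have both the ubiquitous mu1A, encoded by AP1M1, and an epithelial mu1B, encoded by AP1M2, which returns receptors to the basolateral surface. Apical recycling uses the RAB11 group of small GTPases, their effectors and the motor myosin Vb, and the raft-associated protein MAL2 acts in transcytosis to the apical surface.

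Promoter windows of 300 bases (250 before to 50 after the start, RefSeq, GRCh38.p14) matched 3 of the 6 genes, AP1M2, RAB25 and MYO5B, and all 3 are shown. These also had the largest fold differences of the 6. No window matched AP1M1, MAL2 or RAB11FIP1, so the E-box could not be counted in a gene of the 6 that was lower or not called. Capitals mark the E-box CACCTG or its reverse complement CAGGTG, the letters that repressors of the ZEB and SNAI families are known to bind in epithelial promoters. AP1M2 is shown from chr19:10587263-10587562 (minus strand), RAB25 from chr1:156060910-156061209 (plus strand) and MYO5B from chr18:50195098-50195397 (minus strand), each written 5′ to 3′ on the strand of the gene.
AP1M2: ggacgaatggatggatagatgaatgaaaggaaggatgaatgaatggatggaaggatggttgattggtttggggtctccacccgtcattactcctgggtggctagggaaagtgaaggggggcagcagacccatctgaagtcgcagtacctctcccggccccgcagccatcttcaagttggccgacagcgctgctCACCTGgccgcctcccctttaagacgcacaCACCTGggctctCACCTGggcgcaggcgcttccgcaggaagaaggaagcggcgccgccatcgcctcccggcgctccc
RAB25: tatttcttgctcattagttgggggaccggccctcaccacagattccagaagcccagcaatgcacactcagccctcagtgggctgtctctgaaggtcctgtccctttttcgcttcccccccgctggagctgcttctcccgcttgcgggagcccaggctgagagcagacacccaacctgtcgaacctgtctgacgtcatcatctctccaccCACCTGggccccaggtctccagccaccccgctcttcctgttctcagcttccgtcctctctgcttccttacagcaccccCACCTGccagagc
MYO5B: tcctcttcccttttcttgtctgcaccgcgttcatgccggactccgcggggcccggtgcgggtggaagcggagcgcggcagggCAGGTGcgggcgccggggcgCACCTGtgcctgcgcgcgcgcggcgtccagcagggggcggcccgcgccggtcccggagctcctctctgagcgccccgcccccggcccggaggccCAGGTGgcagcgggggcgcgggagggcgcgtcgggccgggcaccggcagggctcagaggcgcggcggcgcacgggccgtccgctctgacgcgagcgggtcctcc

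The E-box occurred 3 times in the AP1M2 window, with its first base at -57, -27 and -15 from the start, 2 times in the RAB25 window, at -41 and 37, and 3 times in the MYO5B window, at -168, -148 and -54. On both strands, 20.6% of 35116 promoter windows held the E-box at least once, 3.49% at least 2 times and 0.635% at least 3 times. Among the paralogs with a window, the myosin genes MYO5A and MYO5C had 1 each, and RAB11A, RAB11B, MAL and MALL had 0. The letters AACCGGTT, which grainyhead factors such as GRHL2 are known to bind, and the looser AACNGGTT were found in 0 of the 3 windows, against 0.134% and 1.73% of all windows. These are matches of letters, and no binding was measured here.

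The libraries held 30149181 to 37801301 estimated counts, and 15781 genes passed the filter. RRM2 rose from 823 and 635 counts in EV cells to 2933 and 2996 in RRM2 cells (21.3 ± 0.705 to 97.7 ± 1.56 CPM, SD, n = 2 each). CPM here are counts divided by the scaled library size, in the usual unit. The RRM2 libraries differed more from each other than the EV libraries did, at a chi-square of 15.9 against 6.15 per degree of freedom over genes. Keratins of simple epithelium (KRT8, KRT18 and KRT19) summed to 394 to 589 CPM. Of 6 leukocyte markers 2 were in the table, with summed levels of 0.294 to 0.397 CPM in EV cells and 0.923 to 1.19 CPM in RRM2 cells. CSF1R, at 3 and 0 against 18 and 11 counts, was called higher, and PTPRC was not called. All 6 fibroblast markers were listed, at 91.0 to 107 CPM in EV cells and 72.0 to 97.8 CPM in RRM2 cells. Most of this sum was COL1A1 (63.6 and 80.5 against 80.7 and 55.7 CPM), which was not called. PDGFRA (22.2 and 21.4 against 10.4 and 10.3 CPM) and COL3A1 (2.70 and 2.88 against 1.84 and 1.42 CPM) were called lower. LUM (1.67 and 1.28 against 3.33 and 3.63 CPM) was called higher. All 5 endothelial markers were listed too, at 76.7 to 77.1 and 36.0 to 36.3 CPM. PECAM1 (24.1 and 23.0 against 9.28 and 9.26 CPM), KDR (33.0 and 32.0 against 19.5 and 20.6 CPM) and ROBO4 (19.5 and 22.1 against 6.88 and 6.0 CPM) carried nearly all of this sum and were called lower. The defining CDH5 had 0 and 0 counts in EV cells and 6 and 9 in RRM2 cells, and VWF had 1 to 4 counts in every library. The part of these markers in the values that follow was not tested, and in bulk RNA fewer cells of a type and less RNA per cell cannot be told apart.

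Calls, higher or lower, needed a fold change over 1.5 and an adjusted p below 0.05 in the quasi-likelihood F-test of edgeR. Past these thresholds, 4 of the 6 genes were higher in RRM2 cells (AP1M2, MYO5B, RAB25 and RAB11FIP1), where 9.97% of all tested genes were called higher. MAL2 was lower, where 8.19% of all genes were called lower, and AP1M1 was not called. Since the genes were picked on this comparison, the counts say nothing beyond the choice.

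**Figure D1:**
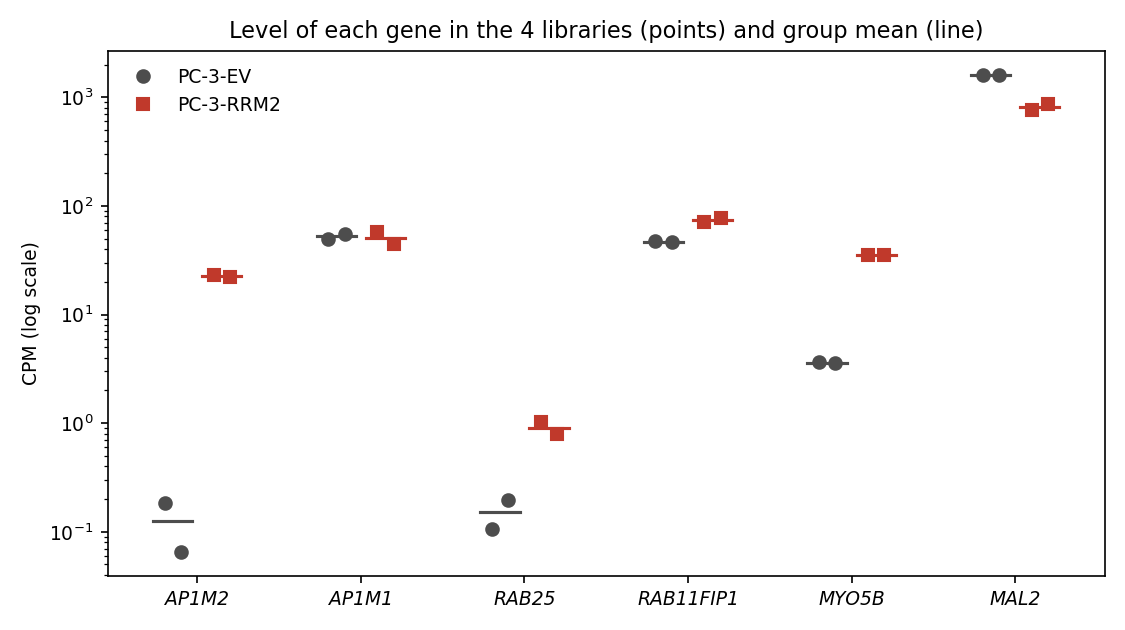
Levels of the 6 genes in CPM on a log axis, with circles for the 2 EV cells libraries, squares for the 2 RRM2 cells libraries and a line at each group mean. AP1M2 lay at 0.065 to 0.185 CPM in EV cells and at 22.1 to 23.2 CPM in RRM2 cells, AP1M1 overlapped between the groups, and MAL2 was the 1 gene of the 6 that was lower in both RRM2 cells libraries.

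AP1M2, the mu1B subunit, had 7 and 2 counts in the EV libraries and 705 and 671 counts in the RRM2 libraries. The gene (chr19:10572671-10587315, minus strand, GRCh38) was thus near the limit of detection in both EV libraries and plainly present in both RRM2 libraries, with no overlap. The mean was 0.125 ± 0.0846 CPM in EV cells against 22.7 ± 0.772 CPM in RRM2 cells (SD, n = 2 each), a log2 fold change of 7.39 (SE 0.258). The ratio of the summed counts was 172, with an exact 95% interval of 90.5 to 378 for counting error only. With so few EV counts the size was loose, and without EV replicate 1 the log2 fold change was 8.33.

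AP1M1, which encodes the ubiquitous mu1A (chr19:16197854-16235345, plus strand), had 49.9 and 54.9 CPM in EV cells and 57.0 and 44.4 CPM in RRM2 cells. The RRM2 libraries held both the highest and the lowest value, so the groups overlapped. The log2 fold change was -0.047 (SE 0.126), and it turned to 0.12 without RRM2 replicate 2. The proteins of the transcript models used are alike in 336 of 423 aligned residues (79.4%), and the transcripts share 0 stretches of 50 bases, the read length of the study, so that whole reads of one do not match the other exactly.

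Divided by transcript length, AP1M2 moved from a trace of the mu1 transcripts to more than 1 in 3. AP1M2 made up 0.485% and 0.156% of the summed AP1M2 and AP1M1 level per kb in the EV libraries and 34.9% and 39.6% in the RRM2 libraries. The means were 0.321 ± 0.232% and 37.2 ± 3.31% (SD, n = 2 each). With AP1M1 overlapping between the groups, the sum went from 22.8 ± 1.48 to 34.8 ± 4.28 CPM per kb, and every RRM2 library lay above both EV libraries.

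The partners of mu1 in the AP-1 complex did not pass the fold threshold. Of the large subunits, AP1B1 (beta1) had a log2 fold change of 0.046 (SE 0.139, adjusted p = 0.822), AP1G1 (gamma1) of 0.33 (SE 0.0865, adjusted p = 0.0225) and AP1G2 (gamma2) of 0.35 (SE 0.12, adjusted p = 0.0568). The small (sigma) subunits are each encoded by a separate gene. AP1S1, AP1S2 and AP1S3 had log2 fold changes of 0.24, -0.36 and 0.28 (adjusted p = 0.0437, 0.0217 and 0.0611). The summed level of the 6 subunits was 161 ± 1.58 CPM per kb in EV cells and 182 ± 0.529 CPM per kb in RRM2 cells.

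**Figure D2:**
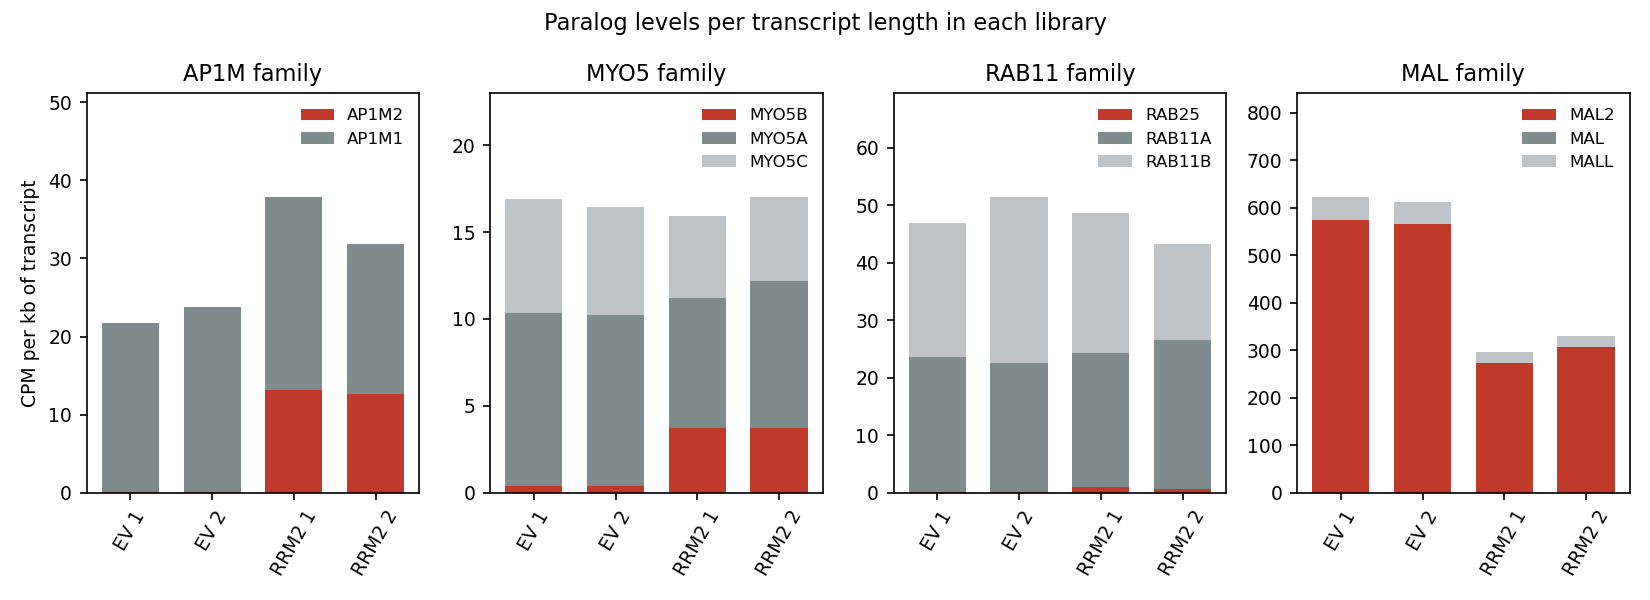
CPM per kb of transcript in each library, stacked over paralogs, for the AP1M, MYO5, RAB11 and MAL families, with the gene followed here in red (in the MAL panel, MAL itself is too low to be seen). AP1M2 was added to an AP1M1 level that stayed between 19.2 and 24.7 CPM per kb, MYO5B took a larger share of a MYO5 sum between 15.9 and 17.0 CPM per kb, and the MAL family sum was lower in both RRM2 libraries.

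RAB25, also called RAB11C, is the RAB11 GTPase that is limited to epithelia (chr1:156061149-156070514, plus strand). It had 4 and 6 counts in EV cells and 31 and 24 counts in RRM2 cells. Both RRM2 libraries were above both EV libraries, yet every value was low. The level was 0.151 ± 0.0639 CPM and 0.906 ± 0.162 CPM (log2 fold change 2.59, SE 0.456), with a count ratio of 6.20 (exact 95% interval 3.13 to 13.6, counting error only). RAB25 remained a minor member of its group, at 0.273 ± 0.0994% of the level per kb summed over RAB25, RAB11A and RAB11B in EV cells and 1.77 ± 0.168% in RRM2 cells.

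The ubiquitous GTPases of that group were not called. RAB11A had a log2 fold change of 0.10 (SE 0.0812, adjusted p = 0.393) and RAB11B of -0.34 (SE 0.183, adjusted p = 0.185). RAB11B was uneven within RRM2 cells, at 42.8 and 28.9 CPM, and was called lower without RRM2 replicate 1 (log2 fold change -0.65).

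RAB11FIP1, or RAB coupling protein, is an effector that binds RAB11 and RAB25 on recycling endosomes (chr8:37858947-37899497, minus strand). Its libraries had 47.8 and 46.1 CPM in EV cells and 71.0 and 76.7 CPM in RRM2 cells. The groups did not overlap, but the difference was the smallest of those past the thresholds, from 46.9 ± 1.24 to 73.9 ± 4.004 CPM (log2 fold change 0.65, SE 0.0844). It fell under the fold threshold without EV replicate 2, at a log2 fold change of 0.58. Its share of the 5 RAB11FIP genes per kb was 19.98 ± 1.65% in EV cells and 28.4 ± 1.88% in RRM2 cells.

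Of the other RAB11 effectors, RAB11FIP4 rose from 2.16 ± 0.0953 to 7.15 ± 0.180 CPM (log2 fold change 1.73, SE 0.162, adjusted p = 2.00e-04). RAB11FIP2, which links RAB11 to myosin Vb, and RAB11FIP5, or Rip11, had log2 fold changes of -0.057 and 0.042 (adjusted p = 0.699 and 0.70). RAB11FIP3, an effector of cytokinesis named after its values were seen, had -0.46 (adjusted p = 0.121), and was called lower without EV replicate 1 (-0.72) or without RRM2 replicate 1 (-0.68).

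MYO5B encodes myosin Vb, the actin motor that carries RAB11 endosomes and whose loss causes microvillus inclusion disease (chr18:49822786-50195081, minus strand). It had 3.65 and 3.56 CPM in EV cells and 35.7 and 35.4 CPM in RRM2 cells. Replicates were close in both groups and the groups were far apart, at 3.61 ± 0.0598 against 35.5 ± 0.154 CPM (log2 fold change 3.30, SE 0.116). The antisense gene SNHG22, named after its values were seen, overlaps MYO5B by 28274 bases and had 3 and 7 against 13 and 8 counts. The strand setting of the counting is not given in the sources used here, so that reads of the shared stretch cannot be told apart, although SNHG22 counts were few beside the 1083 and 1075 counts of MYO5B in RRM2 cells.

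Myosin Vb had a larger share in RRM2 cells of class V myosin transcripts whose sum was close in both groups. MYO5B made up 2.28 ± 0.00965% of the MYO5 level per kb in EV cells and 22.7 ± 1.17% in RRM2 cells, while the sum was 16.7 ± 0.347 and 16.5 ± 0.775 CPM per kb. MYO5A, the ubiquitous myosin Va, and MYO5C, a further epithelial paralog, had log2 fold changes of -0.32 (SE 0.0830, adjusted p = 0.0216) and -0.42 (SE 0.0890, adjusted p = 0.00885). Neither passed the fold threshold, and the values of both were lower in each RRM2 library than in each EV library.

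MAL2, a proteolipid of lipid rafts that acts in transcytosis to the apical surface (chr8:119208371-119245673, plus strand), had 1617 and 1596 CPM in EV cells and 770 and 862 CPM in RRM2 cells. Both RRM2 libraries were far below both EV libraries, and MAL2 was still by far the most abundant of the 6 genes. Its level went from 1607 ± 15.1 to 816 ± 65.1 CPM (log2 fold change -0.98, SE 0.0803). The antisense gene MAL2-AS1 overlaps it by 30563 bases, with 27 and 27 against 8 and 7 counts, few beside the 23383 to 61174 counts of MAL2.

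MAL2 and its relative MALL were lower by a similar factor. MALL, a raft protein also known as BENE, fell from 145 ± 5.04 to 70.8 ± 4.33 CPM (log2 fold change -1.04, SE 0.0794, adjusted p = 7.93e-05). The share of MAL2 in the level per kb of MAL2, MAL and MALL was therefore 92.3 ± 0.180% in EV cells and 92.4 ± 0.144% in RRM2 cells, while the sum went from 618 ± 7.01 to 313 ± 24.5 CPM per kb. MAL, which acts in direct apical transport, had 0 and 0 counts in EV cells and 24 and 24 in RRM2 cells. MAL was called higher (edgeR adjusted p = 0.00116), at 18.0-fold when set against 3 counts over the EV group. The lower limit of its exact interval, for counting error only, was 14.1-fold. MAL held 0.228% of the family in RRM2 cells.

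In order of level per kb in EV cells, MAL2 (570 ± 5.36 CPM per kb) came before AP1M1 (22.7 ± 1.53), RAB11FIP1 (6.01 ± 0.159), MYO5B (0.379 ± 0.00629), RAB25 (0.136 ± 0.0576) and AP1M2 (0.0713 ± 0.0482), and the last pair overlapped. In RRM2 cells the order was MAL2 (290 ± 23.1 CPM per kb), AP1M1 (21.9 ± 3.84), AP1M2 (12.9 ± 0.439), RAB11FIP1 (9.45 ± 0.513), MYO5B (3.74 ± 0.0162) and RAB25 (0.816 ± 0.146), with no overlap between neighbours in the order. AP1M2 went from the last place to the third.

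The wider machinery was followed in 8 lists of 199 genes ordered by role, without the 6 genes above, of which 192 were in the table and 186 were tested. Of these, 27 were called higher (14.5%, against 9.97% of all genes) and 13 lower (7.0%, against 8.19%), and the median log2 fold change was 0.048, against 0.00037 over all genes tested. These lists were compiled from general knowledge, but with earlier results known. Most genes of every list except the apical one lay below the thresholds, and the differences sat in single genes.

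**Figure D3:**
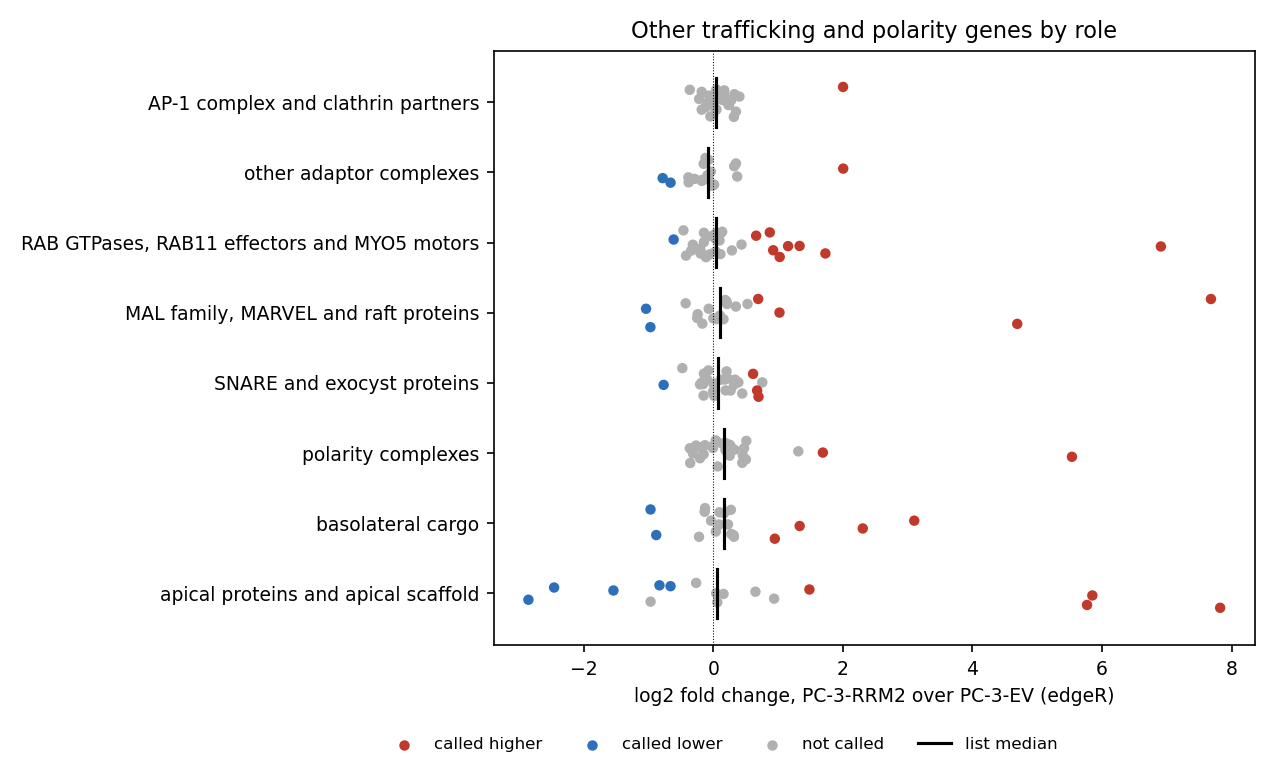
Log2 fold change of RRM2 cells over EV cells for the 186 tested genes of the 8 role lists, with called genes in red (higher) or blue (lower), others in grey and a black bar at each list's median. The medians lay between -0.088 and 0.17 while single genes reached beyond 5. The points of MAL, SYTL5 and TMPRSS4 had 0 counts in both EV libraries, so their fitted values depend on the prior count, and placing them at a bound of 3 counts leaves every median as it is.

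Coat and adaptor genes differed little. Among 24 AP-1 and clathrin partners 1 was higher (4.2%, against 9.97% of all tested genes) and 0 were lower (against 8.19%), with a median log2 fold change of 0.048. The 1 gene was EPN3, an epithelial epsin of clathrin pits, which rose from 0.585 ± 0.00488 to 2.36 ± 0.208 CPM (log2 fold change 2.00, SE 0.253, adjusted p = 8.71e-04). Among 20 genes of the other adaptor complexes 1 was higher (5%) and 2 were lower (10%). AP3B2 was higher, at 5 and 6 against 13 and 27 counts (log2 fold change 2.01, adjusted p = 0.0260). AP5B1 (log2 fold change -0.66, adjusted p = 0.00126) and AP5S1 (-0.78, adjusted p = 0.00591), subunits of the late endosomal AP-5 complex, were lower, and the list's median was -0.088. AP3B2, the neuronal beta3 subunit of AP-3, was not called by DESeq2 (adjusted p = 0.117), without EV replicate 1 (adjusted p = 0.113) or without RRM2 replicate 2 (adjusted p = 0.156, log2 fold change 1.39).

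Among 30 RAB GTPases, RAB11 effectors and MYO5 motors 8 were higher (26.7%, against 9.97% of all tested genes). Of the same 30, 1 was lower (3.3%, against 8.19%), and the median was 0.039. Besides RAB11FIP4, RAB3B, a GTPase of regulated secretion, rose from 54.9 ± 3.42 to 122 ± 10.8 CPM (log2 fold change 1.15, SE 0.0921, adjusted p = 9.35e-05). RAB15, of early and recycling endosomes, rose from 23.9 ± 0.786 to 45.3 ± 3.57 CPM (log2 fold change 0.92, SE 0.0991, adjusted p = 4.14e-04). RAB27B, of secretory granules and exosomes, fell from 150 ± 1.57 to 97.9 ± 5.94 CPM (log2 fold change -0.61, adjusted p = 7.96e-04), and it was not past the fold threshold without RRM2 replicate 1 (-0.55). SYTL5, a RAB27 effector named after its values were seen, had 0 and 0 against 16 and 12 counts. Set against 3 counts over the EV group, SYTL5 was 10.5-fold higher. The lower limit of its exact interval, for counting error only, lay below this value, so that 10.5-fold is not a minimum.

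Of the 21 tested genes of the MAL, MARVEL and raft list 4 were higher (19%, against 9.97% of all tested genes) and 2 were lower (9.5%, against 8.19%), with a median of 0.11. MARVELD3, a tight junction protein with the same MARVEL fold as MAL2, had 13 and 2 counts in EV cells and 172 and 175 in RRM2 cells. Its count ratio was 26.1 (exact 95% interval 15.6 to 47.1, counting error only, edgeR adjusted p = 1.05e-04), with a log2 fold change of 4.69 that became 6.34 when EV replicate 1 was left out and 3.99 when EV replicate 2 was. CMTM4 rose from 39.5 ± 2.00 to 80.1 ± 5.90 CPM (log2 fold change 1.02, adjusted p = 1.66e-04). Its relative CMTM7 fell from 128 ± 4.49 to 65.4 ± 1.92 CPM (log2 fold change -0.97, adjusted p = 8.27e-05), so that proteins of this fold were found on both sides.

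Of 28 tested SNARE and exocyst genes 3 were higher (10.7%, against 9.97% of all tested genes) and 1 was lower (3.6%, against 8.19%), with a median of 0.069. RALB, a GTPase that binds the exocyst, had a log2 fold change of 0.68 (adjusted p = 5.81e-04), VAMP4, a SNARE of the trans-Golgi network, of 0.61 (adjusted p = 7.38e-04) and EXPH5, a RAB27 effector, of 0.70 (adjusted p = 9.18e-04). EXOC7, the exocyst subunit that binds the plasma membrane, fell from 189 ± 7.35 to 111 ± 8.66 CPM (log2 fold change -0.77, adjusted p = 4.06e-04). VAMP4 was under the fold threshold without EV replicate 2 (0.55) or without RRM2 replicate 2 (0.56).

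Among 28 polarity genes 2 were higher (7.1%, against 9.97% of all tested genes) and 0 were lower (against 8.19%), with a median of 0.16. CRB3, the epithelial Crumbs protein that marks the apical membrane, had 8 and 3 counts in EV cells and 290 and 172 in RRM2 cells. Its count ratio was 47.3 (exact 95% interval 26.2 to 95.5, counting error only, edgeR adjusted p = 7.53e-05), and the log2 fold change of 5.54 became 6.20 without EV replicate 1. PARD6B, a scaffold of atypical protein kinase C, rose from 5.56 ± 0.0978 to 18.0 ± 1.62 CPM (log2 fold change 1.69, adjusted p = 8.93e-05).

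Of 19 tested basolateral proteins 4 were higher (21.1%, against 9.97% of all tested genes) and 2 were lower (10.5%, against 8.19%), with a median of 0.17. CXADR, the coxsackievirus and adenovirus receptor, had 33 and 25 against 216 and 227 counts (log2 fold change 3.10, SE 0.187, adjusted p = 2.46e-05). CDH1, E-cadherin, rose from 22.7 ± 0.329 to 112 ± 4.74 CPM (log2 fold change 2.31, adjusted p = 1.88e-06), and EGFR had a log2 fold change of 1.33 (adjusted p = 1.23e-05). ITGA6 and ITGB4, the integrin pair that holds epithelia to the basement membrane, fell, with log2 fold changes of -0.88 (adjusted p = 1.35e-04) and -0.97 (adjusted p = 0.00491), the latter named after its values were seen. TFRC, the transferrin receptor, a known cargo of mu1B that was also named after its values were seen, had a log2 fold change of -0.13 (adjusted p = 0.235) and was not called.

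The apical list moved in both directions. ST14 and the others were counted in it as the list was compiled, and the surface at which each protein sits was not measured here. Of its 16 tested genes 4 were higher (25%, against 9.97% of all tested genes). Of the same 16, 5 were lower (31.2%, against 8.19%), and the median was 0.053. ST14 (matriptase) had 30 and 23 against 1596 and 1129 counts, and PRSS8 (prostasin), a membrane serine protease that works with matriptase, had 9 and 16 against 718 and 511 counts. Their log2 fold changes were 5.85 (SE 0.231, adjusted p = 2.83e-06) and 5.77 (SE 0.313, adjusted p = 1.45e-05). PODXL, the apical sialomucin podocalyxin, had 1.48 (adjusted p = 1.05e-05). TMPRSS4, a further membrane protease named after its values were seen, had 0 and 0 against 25 and 28 counts. Set against 3 counts over the EV group, TMPRSS4 was 19.9-fold higher. The lower limit of its exact interval, for counting error only, was 15.6-fold. The lower genes given here were the hydrolase DPP4 and the adhesion proteins CEACAM5 and CEACAM6. The rest of the lower genes of this list are not reported here. DPP4 fell from 27.1 ± 0.576 to 9.29 ± 1.03 CPM (log2 fold change -1.54, adjusted p = 8.73e-05), and CEACAM5 and CEACAM6, named after their values were seen, had log2 fold changes of -2.85 and -2.46 (adjusted p = 1.05e-04 and 7.73e-04).

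Position on the chromosome was looked at through the 3 nearest tested genes on each side. Of the 6 neighbours of AP1M2, the farthest of which lies 66946 bases away, 0 were called. Over all tested genes 9.97% were called higher and 8.19% lower, so that few calls would be found among 6 genes in any case. The log2 fold changes of these neighbours ran from -0.38 (KRI1, whose yeast counterpart acts in ribosome assembly) to 0.47 (CDKN2D, an inhibitor of cyclin-dependent kinases). The 6 neighbours of MAL2 were more distant, the farthest at 586376 bases. Of these, 3 were lower, where 8.19% of all tested genes were, and 1 of the 3 kept the call under DESeq2. Among the 3 is MAL2-AS1, which overlaps MAL2 on the opposite strand. With the strand setting not given, its counts cannot be told apart from reads of MAL2, so it is not a separate neighbour in the sense of the others. NOV, a matricellular protein also called CCN3, fell from 80.4 ± 3.57 to 39.5 ± 4.37 CPM (log2 fold change -1.02, SE 0.100, adjusted p = 2.56e-04). MAL2-AS1 (log2 fold change -1.67, adjusted p = 0.0142) and TNFRSF11B, or osteoprotegerin (-0.64, adjusted p = 0.0162), lost the call under DESeq2 (adjusted p = 0.116 and 0.0612). MAL2-AS1 also lost it without EV replicate 2 (adjusted p = 0.0958) or RRM2 replicate 2 (adjusted p = 0.0529), and TNFRSF11B without EV replicate 1 (adjusted p = 0.0936) or, by its fold change, without RRM2 replicate 1 (log2 fold change -0.58). ENPP2 (autotaxin), on the far side of NOV, had 0.62 (adjusted p = 0.0549) and was called higher without RRM2 replicate 1 (0.83, adjusted p = 0.00978) and with the replicate block (0.61, adjusted p = 0.0493). Over the 36 neighbours of all 6 genes, 4 were higher and 3 were lower, shares near those over all genes (9.97% and 8.19%).

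**Figure D4:**
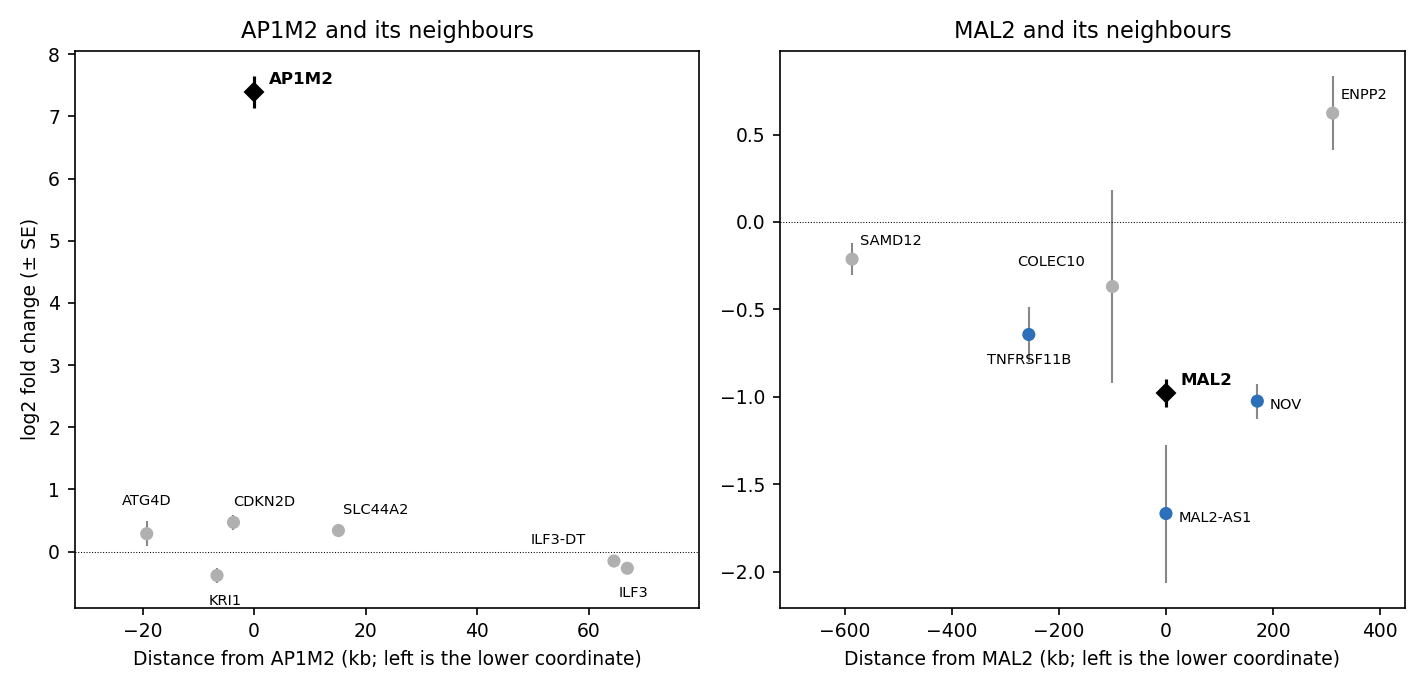
Log2 fold change (RRM2 cells over EV cells) with its standard error against distance in kb for AP1M2 and MAL2 (black diamonds) and their 6 nearest tested neighbours each, in blue where called lower and grey where not called. AP1M2 stood alone at 7.39 among neighbours between -0.38 and 0.47, while MAL2 at -0.98 was close in value to NOV at -1.02. NOV lies 170639 bases from MAL2. Axis ranges differ between the panels.

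The genes whose pattern was most like that of AP1M2 over the 4 libraries, by Euclidean distance between log2 CPM values among the genes tested, were LPCAT2 (distance 0.490), TSPAN18 (1.24), SAA2 (1.41), ITGB6 (1.44) and NECTIN4 (1.72). LPCAT2, a lysophospholipid acyltransferase, had 6 and 3 counts in EV cells and 571 and 621 in RRM2 cells. ITGB6, an integrin subunit of epithelia, had 5 and 8 against 561 and 604 counts, and NECTIN4, an adhesion protein of epithelial junctions, had 6 and 3 against 313 and 288. TSPAN18 had 4 and 6 against 573 and 542 counts, and SAA2 had 10 and 8 against 675 and 727. All were picked for their likeness to AP1M2 over these same libraries. Their low level in EV cells and high level in RRM2 cells therefore follow from the choice.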

How the data were processed

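Total RNA of 4 PC-3 libraries was sequenced as paired reads of 50 bases and quantified in Partek Flow by the authors. The version of Partek Flow, its aligner and strand setting, and the annotation behind the table were not given in the sources used here. Values deposited are estimated counts per gene, not normalized by the authors (56.0% to 57.7% whole numbers, 17634 genes, smallest row sum 10). Coordinates matched GRCh38 (99.8% of 16496 shared symbols overlapped RefSeq genes of GRCh38.p14).

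Counts were rounded, filtered with filterByExpr (15781 genes) and scaled by TMM. RRM2 cells (PC-3-RRM2) were set against EV cells (PC-3-EV) with edgeR's quasi-likelihood F-test (edgeR 4.0.16, R 4.3.3), Benjamini-Hochberg adjusted over all genes tested, and calls used the thresholds of the study (adjusted p below 0.05, fold change over 1.5). CPM use TMM-scaled library sizes, and errors are SD over 2 libraries. Values per kb use the length of the GENCODE release 29 transcript with the longest coding sequence within the table's coordinates. Protein identity came from a global alignment (BLOSUM62, gap open 11, extend 1). Intervals are exact 95% intervals that cover counting error only.

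The 6 genes and all lists were chosen with earlier results of these data known. The rule for named genes took the 6 genes, RRM2, up to 4 called genes of smallest p from each of 8 role lists, the paralogs, the AP-1 subunits, the neighbours of AP1M2 and MAL2 and the 5 genes most like AP1M2. Some genes of the lists are not reported here. Alternatives were RLE and upper-quartile scaling, no filter, a filter at 1 CPM in 2 libraries, DESeq2 1.42.0, limma-voom (limma 3.58.1), any fold change, a replicate block and leaving out each library. P-values cover only the spread among the 4 libraries, possibly technical, and an exact permutation test of 2 against 2 was not used. Tested on simulated data of RRM2 cells against EV cells (15592 genes, 200 changed), the test recovered 86.8% of 2-fold and 98.7% of 4-fold changes, with 7 false calls on average. The changed genes were drawn above a minimum mean count and were fewer than the genes called in the data. The recovery therefore does not cover genes of low counts such as RAB25 and MAL.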

Additional observations from a re-analysis of the deposited data

How the results depend on the processing

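Of 708 values of 65 tested named genes other than the 6 followed here, under other settings, 684 kept their direction and their side of the thresholds, 12 lost the call, 5 gained one and 7 turned direction. Those that turned were all uncalled genes without 1 library: over the 4 omissions the log2 fold change ran from -0.13 to 0.014 for RAB11FIP2, -0.020 to 0.078 for RAB11FIP5, -0.16 to 0.23 for AP1B1, -0.012 to 0.54 for ATG4D and -1.02 to 0.24 for COLEC10. With any fold change accepted, 2963 genes were higher and 2440 lower, with 52 and 22 of the listed trafficking genes and 12 neighbours. With 1 library left out, 1329 to 1642 genes were higher and 1233 to 1687 lower, with 25 to 27 and 11 to 18 trafficking genes and 5 to 8 neighbours. The log2 fold change of AP1M2 then ran from 6.86 to 8.33, that of MYO5B from 3.24 to 3.30 and that of AP1M1 from -0.24 to 0.12, turning direction without RRM2 replicate 2, while RAB11FIP1 lost its call without EV replicate 2 (0.58). DESeq2 called 1289 genes higher and 1055 lower. The AP1M2 share in RRM2 cells was 31.1% with counts not divided by length and 31.6% with coding length. Samples with the same replicate number did not deviate together (r = -0.269 over 15781 genes, which are not independent). With 2 libraries per group, crossed numbers give the same r with the opposite sign. The value therefore cannot decide whether libraries were paired. The replicate block gave 1628 higher and 1396 lower genes, 27 and 13 trafficking genes and 8 neighbours, with ENPP2 gained (0.61). With crossed numbers, an alternative added after seeing the data, the counts were 1722 and 1531, with 29 and 13 trafficking genes. RAB25 was not tested under the stricter filter. Depth limits AP1M2, RAB25, MAL and CRB3, whose EV counts were under 10 per library, and groups of 2 are too small to single out a library.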
